A study of Mus musculus with 6 samples.

Results

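The 10 genes described here mark hormone-producing (endocrine), mucus-type secretory and tuft cells, and were taken by symbol from the 54453 Ensembl genes of the deposited tables. Neurog3, Neurod1, Insm1 and Pax4 are transcription factors of the endocrine lineage, and Chga and Chgb are granins of hormone granules. Atoh1 and Hepacam2 stand for the intestinal secretory lineage, and Dclk1 and Pou2f3 for tuft cells. The genes were chosen by their measured levels by line and by hairpin in these same libraries, so those levels and the hairpin differences of the 10 genes are given as a description and carry no test.

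In the mouse gut and pancreas, progenitors under active Notch signalling keep their undifferentiated state through Hes repressors, which hold down basic helix-loop-helix factors. Where Notch signalling is low, Atoh1 directs intestinal progenitors to goblet, Paneth, tuft and enteroendocrine fates, and Neurog3 starts the endocrine programme in both organs, with Neurod1, Insm1 and Pax4 acting after it. Tuft cells are rare chemosensory cells that depend on Pou2f3, and Dclk1 is their usual marker in mouse tissue.

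The libraries came from T113, T91 and T118, 3 organoid lines grown from mouse pancreatic tumours, each with a hairpin against Scrib (number 5523) and, in another sample, with a control hairpin against Renilla luciferase, a gene that mouse cells lack. Scrib encodes a scaffold protein of epithelial cell polarity. The lines are of the KPC kind, a family of mouse models of pancreatic cancer. All 6 libraries carry the genotype label KPF/FC, which the labels do not spell out, and the cultures were grown in Matrigel as organoids of pancreatic ductal adenocarcinoma (PDAC). T113 was male and at passage 13, T91 female and at passage 10, and T118 male and at passage 11. Line and passage thus cannot be told apart, and neither can line and sex where T91 is compared with T113 or T118. The treatment label speaks of virus and the design text of transfected plasmids. With 1 library for each line and hairpin, a hairpin difference has 3 lines behind it, a line difference has 2 libraries with different hairpins, and a difference in hairpin effect between lines cannot be tested.

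Library totals ran from 24035559 to 36235773 estimated counts, and 1 count equalled between 0.0276 and 0.0416 CPM, the count scaled to the library total. The targeted gene, Scrib, had 36.04 CPM with the Scrib hairpin and 161 CPM with the Renilla hairpin in T113, 29.4 and 176 CPM in T91, and 29.3 and 154 CPM in T118 (log2 fold change -2.38, SE 0.12, adjusted p = 0.00582, edgeR quasi-likelihood test). It was the only gene of 14169 tested that passed the adjusted threshold of 0.05 in that test; 936 genes (6.61%) had an unadjusted p under 0.05, and DESeq2 called 63 genes (0.445%). Leaving out a line gave 9 called genes without T113, 94 without T91 and 25 without T118. All 8 epithelial markers were at 1 CPM or more in every library, whereas summed fibroblast markers reached 7.49 CPM (T91 with the Scrib hairpin) and summed immune markers 5.58 CPM in the same library. Summed markers of acinar cells, the enzyme-making cells of the pancreas, were highest in T113, at 6.20 CPM with the Scrib hairpin and 7.98 CPM with the Renilla hairpin, against 3.04 and 3.11 CPM in T91 and 1.56 and 2.47 CPM in T118, with 1 of 6 (Ptf1a) at 0 throughout. Most of that sum was Bhlha15, a factor that secretory cells of other kinds also express, and the other 5 markers summed to 0.570 and 0.828 CPM in T113, 1.08 and 0.802 CPM in T91, and 0.214 and 0.567 CPM in T118, so T113 was not set apart without it.

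Promoter sequences are shown for 4 of the 5 genes that reached 1 CPM in T113, because these 4 were high together in the same line. They are RefSeq windows on GRCm38.p6 from 250 bases before to 50 bases after a start site, written 5′ to 3′ on the gene's strand, with the E-box letters CANNTG, the core that basic helix-loop-helix factors bind, in capitals. The windows are Neurog3 at chr10:62132840-62133139 (plus strand), Chgb at chr2:132781392-132781691 (plus), Atoh1 at chr6:64728875-64729174 (plus) and Hepacam2 at chr6:3494449-3494748 (minus). The start sites of the Chgb and Hepacam2 windows lie inside the gene bounds given below, not at their outer ends.
Neurog3: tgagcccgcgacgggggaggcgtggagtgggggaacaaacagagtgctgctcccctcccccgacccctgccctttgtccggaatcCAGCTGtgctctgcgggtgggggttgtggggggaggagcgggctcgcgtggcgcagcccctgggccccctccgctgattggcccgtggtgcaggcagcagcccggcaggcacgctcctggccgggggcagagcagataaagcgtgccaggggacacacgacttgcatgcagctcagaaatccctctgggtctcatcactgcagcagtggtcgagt
Chgb: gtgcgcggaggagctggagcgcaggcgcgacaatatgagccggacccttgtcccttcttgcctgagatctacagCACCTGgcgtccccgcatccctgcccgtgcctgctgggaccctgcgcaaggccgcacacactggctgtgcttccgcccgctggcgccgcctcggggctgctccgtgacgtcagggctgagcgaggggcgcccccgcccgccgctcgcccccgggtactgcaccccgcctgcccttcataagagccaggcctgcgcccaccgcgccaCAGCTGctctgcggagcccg
Atoh1: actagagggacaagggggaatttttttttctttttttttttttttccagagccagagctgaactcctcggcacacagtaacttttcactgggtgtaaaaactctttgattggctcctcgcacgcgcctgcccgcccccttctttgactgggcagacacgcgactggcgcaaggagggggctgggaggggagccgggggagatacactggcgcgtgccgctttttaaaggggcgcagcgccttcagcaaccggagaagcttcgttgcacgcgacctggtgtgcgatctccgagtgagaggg
Hepacam2: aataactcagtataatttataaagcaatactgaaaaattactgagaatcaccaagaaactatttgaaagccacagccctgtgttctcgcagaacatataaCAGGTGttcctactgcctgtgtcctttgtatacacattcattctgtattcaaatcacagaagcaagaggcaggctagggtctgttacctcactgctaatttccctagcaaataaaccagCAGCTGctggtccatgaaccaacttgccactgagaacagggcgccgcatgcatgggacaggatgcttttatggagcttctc

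Counted from the start site at 0, the Neurog3 window held CAGCTG at position -165. The Chgb window held CACCTG at -176 and CAGCTG at 30, and the Hepacam2 window held CAGGTG at -150 and CAGCTG at -31. The Atoh1 window held no CANNTG, but CTGGTG at 23 matched CACNAG, the N-box letters of Hes repressors, on the other strand. Both strands were searched, CAGCTG is one case of CANNTG, and no CACNAG match overlapped a CANNTG match. Among all 32851 RefSeq windows of this length, 72.3% held CANNTG, 16.3% held CAGCTG and 42.5% held CACNAG. These are matches of letters and no measure of binding. RefSeq windows matched 7 of the 10 genes, and Insm1, Pax4 and Pou2f3 had no entry.

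A gene is called on in a line here where both of its libraries had at least 1 CPM, absent where both had less than 0.1 CPM, and low otherwise. By this rule 5 of the 10 genes were on in T113 (Neurog3, Insm1, Chgb, Atoh1 and Hepacam2), and none was on in T91 or T118. In T113 Neurod1, Chga and Pax4 were low, and Dclk1 and Pou2f3 were absent. In T91 8 genes were low and 2 absent, and in T118 5 were low and 5 absent. As background, of 21811 protein-coding genes in the tables, 11182 were on in T113, 11176 in T91 and 11033 in T118. On in T113 alone were 146 of them, in T91 alone 163 and in T118 alone 142. Since the 10 genes were chosen on these levels, nothing is read from their count. Just inside the limit, Insm1 had 1.31 CPM in its lower T113 library. Just outside, Hepacam2 and Atoh1 had 1.201 and 1.03 CPM in T118 with the Renilla hairpin but 0.322 and 0.179 CPM there with the Scrib hairpin. In whole-culture RNA, fewer cells of a type and less RNA per cell cannot be told apart.

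**Figure D1:**
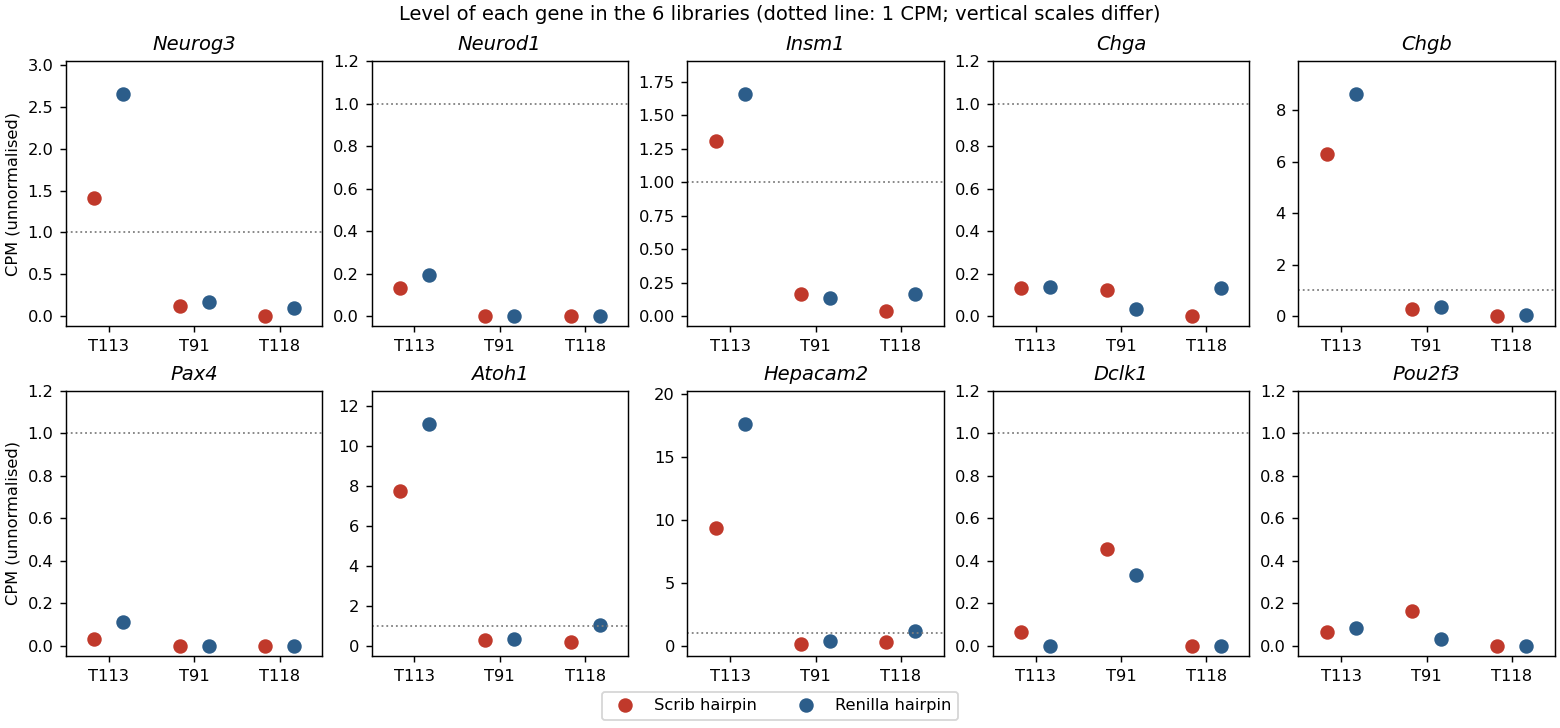
Level of each of the 10 genes in CPM (vertical axes, scales differ) by organoid line (horizontal axes), with the Scrib hairpin in red and the Renilla hairpin in blue, 1 library per point. Neurog3, Insm1, Chgb, Atoh1 and Hepacam2 stand above the dotted 1 CPM line in both T113 libraries, and Dclk1 is highest in T91.

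Neurog3, the factor that starts endocrine differentiation (chromosome 10, 62133090 to 62134763, GRCm38), had 1.41 CPM with the Scrib hairpin and 2.65 CPM with the Renilla hairpin in T113 (42 and 96 counts). It had 0.125 and 0.167 CPM in T91 (3 and 5 counts), and 0 and 0.1001 CPM in T118 (0 and 3 counts). Both T113 libraries lay above the other 4, and within T113 the library with the Scrib hairpin was the lower one. Over the summed counts of a line, T113 had 14.1 times the level of T91 (95% counting interval 6.95 to 33.3) and 40.4 times that of T118 (13.5 to 198). All such intervals cover counting error only. Within T113 the ratio of the Scrib to the Renilla hairpin was 0.532 (0.361 to 0.772), an interval that lies below 1. Fam241b overlaps Neurog3 on the opposite strand and had 4.01 to 6.10 CPM in the 6 libraries, and since no strand setting is stated, reads of the pair may not be told apart.

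Insm1, a zinc-finger factor of endocrine and neuroendocrine cells (chromosome 2, 146221921 to 146225020), was likewise highest in T113. It had 1.31 CPM with the Scrib hairpin and 1.66 CPM with the Renilla hairpin in T113, 0.166 and 0.134 CPM in T91, and 0.0357 and 0.167 CPM in T118. T113 was 10.1 times T91 (4.93 to 24.1) and 14.5 times T118 (6.42 to 40.4). The T113 hairpin ratio of 0.790 had an interval from 0.514 to 1.202, which includes 1, so no hairpin difference was detectable for Insm1 at this depth.

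Neurod1, which acts after Neurog3 in endocrine differentiation (chromosome 2, 79452521 to 79456751), had 4 counts with the Scrib hairpin and 7 with the Renilla hairpin in T113, or 0.134 and 0.193 CPM. No count fell on it in T91 or T118, which allows up to 0.125 CPM in the shallowest library. With a floor of 3 counts over both libraries of a line, Neurod1 was at least 2.99-fold higher in T113 than in T91 and at least 3.22-fold higher than in T118, and the lower ends of the exact 95% counting intervals of these ratios were 2.05 and 2.20. Pax4, a homeobox factor of beta- and delta-type endocrine cells (chromosome 6, 28442334 to 28449353), had 1 and 4 counts in T113 with the Scrib and the Renilla hairpin and none elsewhere. The lower ends of its exact counting intervals, 0.748 for T113 over T91 and 0.804 for T113 over T118, were below 1, so no line difference was detectable for Pax4. Both genes were thus counted in T113 libraries alone, at levels near the limit of detection.

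The granins parted from each other. Chgb (chromosome 2, 132781278 to 132795079) had 6.31 CPM with the Scrib hairpin and 8.61 CPM with the Renilla hairpin in T113 (188 and 312 counts), 0.291 and 0.368 CPM in T91, and 0 and 0.0667 CPM in T118. T113 was 22.7 times T91 (14.2 to 38.6) and, against 2 counts, 219 times T118 (60.4 to 1817). T118 in turn had 0.103 times the Chgb level of T91 (0.0116 to 0.432), so T118 and not T91 was the lowest line. Chga (chromosome 12, 102554969 to 102565028), the granin most used as a neuroendocrine marker, stayed at 0 to 5 counts in every library. Its highest level was 0.138 CPM in T113 with the Renilla hairpin, against 0.133 CPM in T118 with the same hairpin, and the T113 to T91 ratio of 1.84 had an interval from 0.513 to 8.17. No line difference in Chga was detectable.

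Atoh1, the factor that commits intestinal cells to the secretory lineage (chromosome 6, 64729125 to 64731245), had 7.75 CPM with the Scrib hairpin and 11.1 CPM with the Renilla hairpin in T113 (231 and 402 counts). It had 0.291 and 0.368 CPM in T91, and 0.179 and 1.03 CPM in T118. Hepacam2, an immunoglobulin-family membrane protein of mouse intestinal secretory and tuft cells (chromosome 6, 3457096 to 3498298), had 9.32 CPM with the Scrib hairpin and 17.6 CPM with the Renilla hairpin in T113 (278 and 638 counts), 0.166 and 0.401 CPM in T91, and 0.322 and 1.201 CPM in T118. For both genes T113 was far above the other lines. T118 lay above T91 with the Renilla hairpin, whereas with the Scrib hairpin Hepacam2 was higher in T118 and Atoh1 lower. For Atoh1 T113 was 28.7 times T91 (18.0 to 48.8) and 15.4 times T118 (11.03 to 22.2), and T118 was 1.86 times T91 (1.03 to 3.48). For Hepacam2 the same ratios were 46.8 (28.6 to 82.2), 17.9 (13.2 to 24.7) and 2.62 (1.45 to 4.96). For Atoh1 the T118 to T91 ratio thus rests on the libraries with the Renilla hairpin.

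Neither gene of the tuft pair was on in any line. Dclk1, a microtubule-binding kinase (chromosome 3, 55242364 to 55539068), had 0.0671 CPM with the Scrib hairpin and 0 CPM with the Renilla hairpin in T113 (2 and 0 counts), 0.458 and 0.334 CPM in T91 (11 and 10 counts), and no count in T118. T113 had 0.0778 times the Dclk1 level of T91 (0.00884 to 0.318), and T91 was at least 7.52-fold higher than T118 with the floor of 3 counts (the exact interval of T118 over T91 ended at 0.179). Pou2f3, the factor that tuft cells require (chromosome 9, 43123939 to 43210369), had 2 counts with the Scrib hairpin and 3 with the Renilla hairpin in T113, 4 and 1 in T91 and none in T118. Dclk1 was thus lower in T113 than in T91, while Pou2f3 showed no detectable difference between these lines (ratio 0.817, 0.188 to 3.55). Of 6 further tuft markers, Gfi1b, Il25 and Alox5 had no count in any library, and Trpm5 and Sh2d6 reached at most 0.125 and 0.0334 CPM. Avil, an actin-binding protein, had 1.78 CPM with the Scrib hairpin and 1.68 CPM with the Renilla hairpin in T113, 1.25 and 1.47 CPM in T91, and 0.429 and 0.5002 CPM in T118. It was lowest in T118, and T113 minus T91 was 0.30 on the log2 scale (SE 0.34), so no difference between T113 and T91 was detectable for Avil.

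Levels of different genes can be set side by side per length of exon sequence, as RPKM. This is the CPM divided by the joined length of all annotated exons of the gene in kilobases, which can exceed the length of a single transcript. On that scale the mean of the T113 libraries was 4.44 for Atoh1, 2.72 for Chgb, 2.29 for Hepacam2, 1.21 for Neurog3 and 0.478 for Insm1, and at most 0.0600 for the other 5 genes. Single T113 libraries had 3.65 with the Scrib hairpin and 5.23 with the Renilla hairpin for Atoh1, 2.30 and 3.14 for Chgb, and 1.59 and 3.00 for Hepacam2. Insm1 had 0.422 and 0.534, and Neurog3 0.841 and 1.58. Atoh1 lay above all others in both libraries without overlap, Chgb and Hepacam2 overlapped, and Neurog3 and Insm1 each lay below the gene before them in both libraries.

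The 6 endocrine genes summed to 9.32 CPM with the Scrib hairpin and 13.4 CPM with the Renilla hairpin in T113, 0.707 and 0.702 CPM in T91, and 0.0357 and 0.467 CPM in T118. Atoh1 and Hepacam2 summed to 17.1 and 28.7 CPM in T113, 0.458 and 0.769 CPM in T91, and 0.5002 and 2.23 CPM in T118. Of all counts on these 8 genes, the endocrine genes held 33.0% in T113 (exact 95% interval 31.1 to 34.9%), 52.8% in T91 (40.7 to 64.7%) and 15.6% in T118 (9.02 to 24.5%). These shares are a description of genes chosen on these levels. By library the share was 60.7% with the Scrib hairpin (40.6 to 78.5%) and 47.7% with the Renilla hairpin (32.5 to 63.3%) in T91, and the second interval overlapped those of both T113 libraries. In T113 it was 35.3% with the Scrib hairpin (31.98 to 38.8%) and 31.8% with the Renilla hairpin (29.4 to 34.2%), and in T118 6.67% (0.169 to 31.9%) and 17.3% (9.78 to 27.3%).

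**Figure D2:**
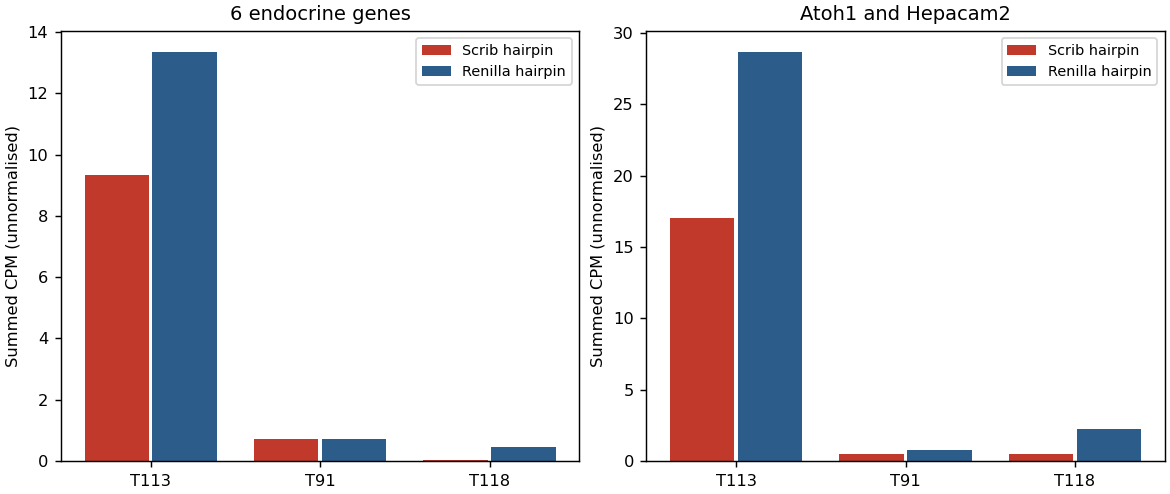
Summed CPM (vertical axes, from 0) of the 6 endocrine genes, left, and of Atoh1 and Hepacam2, right, by line, with the Scrib hairpin in red beside the Renilla hairpin in blue, 1 library per bar. The T113 bars are the tallest in both panels, at 9.32 and 13.4 CPM on the left and 17.1 and 28.7 CPM on the right.

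The question of the design is what the Scrib hairpin changed within a line. Of 12 gene and line pairs with at least 10 counts over both hairpins, 6 had a Scrib to Renilla ratio whose interval lay below 1 and 0 had one above 1. Over all 21055 gene and line pairs with 11 to 916 counts, the range of these pairs, 17.5% had an interval below 1 and 11.3% above 1. Since the genes were chosen with this contrast in view, nothing is read from their count. In T113 these were Neurog3 (0.532), Hepacam2 with 0.530 (0.458 to 0.611), Atoh1 with 0.698 (0.591 to 0.823) and Chgb with 0.732 (0.608 to 0.880). In T118 they were Atoh1 with 0.173 (0.0525 to 0.448) and Hepacam2 with 0.268 (0.113 to 0.567). For Atoh1 the T118 interval lay wholly below the T113 interval, and for Hepacam2 the intervals overlapped; with 1 library per line and hairpin neither difference was tested. In T91 the intervals of Chgb, Atoh1 and Hepacam2 all included 1, at 0.792 (0.260 to 2.24), 0.792 (0.260 to 2.24) and 0.415 (0.0975 to 1.37), and Dclk1 had 1.37 (0.528 to 3.60). Counting error alone stands behind these intervals, and each is a comparison of 2 libraries.

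**Figure D3:**
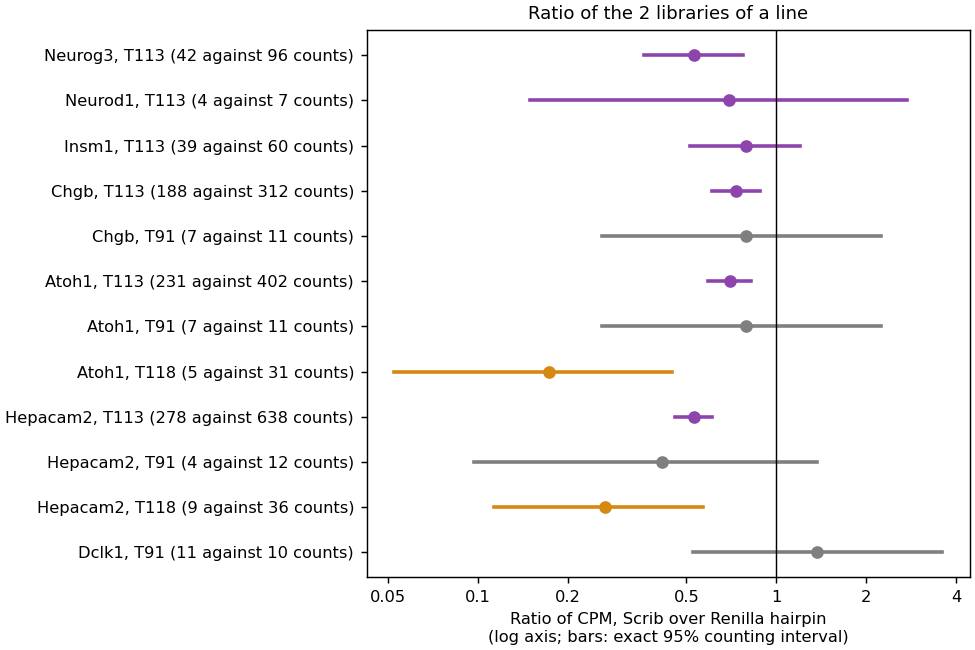
Ratio of CPM with the Scrib hairpin to CPM with the Renilla hairpin (horizontal log axis) for each gene and line with at least 10 counts, with the counts of the Scrib against the Renilla hairpin beside each name and bars for the exact 95% counting interval. In 6 of 12 pairs the bar lies left of the vertical line at 1, with the lowest ratio, 0.173, for Atoh1 in T118.

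Across the 3 lines, Chgb, Atoh1 and Hepacam2 were the genes of the 10 that passed the low-count filter on the hairpin groups. Each was lower with the Scrib hairpin in all 3 lines, as were 15.8% of all genes tested. For Chgb outside T113 that direction rests on 7 against 11 counts in T91 and 0 against 2 counts in T118. The log2 fold change was -1.24 (SE 0.27) for Hepacam2, -0.96 (SE 0.41) for Atoh1 and -0.53 (SE 0.39) for Chgb, and 0 of the 3 were called by edgeR, where 0.00706% of all genes were. As these hairpin differences were used to choose the genes, no conclusion rests on that count. DESeq2 called none of the 3 and 0.402% of all genes as lower. Without T118 the Atoh1 value was -0.49, and without T113 it was -1.45. With the filter set on lines instead, Neurog3 and Insm1 entered the fit through their T113 counts, with log2 fold changes of -1.02 (SE 0.56) and -0.47 (SE 0.52). Outside T113 neither gene had more than 5 counts in a library. These values thus rest mainly on the T113 libraries, the line by whose levels the genes were chosen, and are a description. The remaining 5 genes could be fitted only with no filter and had SEs of 1.13 to 2.44, larger than or near their log2 fold changes, which ran from -1.38 for Pax4 to 0.97 for Dclk1.

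Other genes of the same programmes were taken from 8 lists, chosen with earlier results of these data known, which hold 159 genes besides the 10. Of these, 74 passed the filter, and 25 of the 74 differed between lines (edgeR F-test, adjusted p under 0.05), beside 14.0% of all genes tested. Without T113 the count was 11. With the Scrib hairpin 55 of the 74 had a log2 fold change below 0 and 19 above 0, with a median of -0.16, beside a median of -0.01 over all genes, and 0 passed the adjusted threshold (11 were lower and 1 higher at an unadjusted p under 0.05, beside 5.06% and 1.55% of all genes). DESeq2 called 1 of them.

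Among 23 endocrine factors, 8 passed the filter and 3 differed between lines, but not in the order of Neurog3. Sox4, an HMG-box factor of endocrine progenitors, had 0.872 CPM with the Scrib hairpin and 1.49 CPM with the Renilla hairpin in T113, against 35.6 and 51.5 CPM in T91 and 0.929 and 1.63 CPM in T118 (T113 minus T91 -5.26 on the log2 scale, line adjusted p = 0.000126, edgeR F-test, not passed without T91). Its paralogue Sox11 was high in T113 and T91 and low in T118 (T113 minus T118 3.98, the same adjusted p, not passed without T118). The hairpin log2 fold changes of -0.66 (SE 0.15) for Sox4 and -0.49 (SE 0.10) for Sox11 did not pass, and both genes were lower with the Scrib hairpin in all 3 lines. Nkx2-2 and Rfx6, endocrine factors named after their values were seen, were counted in T113 alone, with 11 and 20 counts (Nkx2-2) and 11 and 10 counts (Rfx6) with the Scrib and the Renilla hairpin.

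Genes of hormone storage and release numbered 28, of which 15 passed the filter and 3 differed between lines. Abcc8, the regulatory subunit of the beta-cell potassium channel, was higher in T113 than in both other lines, with 7.75 CPM with the Scrib hairpin and 11.01 CPM with the Renilla hairpin, against 0.0832 and 0.568 CPM in T91 and 1.14 and 2.23 CPM in T118 (line adjusted p = 0.00267, edgeR F-test). Ddc, which makes serotonin and dopamine, was highest in T118 (T113 minus T118 -2.21 on the log2 scale, line adjusted p = 0.000383). The hairpin log2 fold changes were -0.97 (SE 0.34) for Abcc8, -0.37 (SE 0.13) for Gch1, which makes the cofactor of serotonin synthesis, and -0.21 (SE 0.20) for Ddc, and none of the 15 passed.

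Of 14 peptide hormones, only Sst and Sct passed the filter, and neither differed between lines past the threshold (line adjusted p = 0.0898 and 0.0516, edgeR F-test), although both passed without T118. Sst, the somatostatin gene, had 41 counts with either hairpin in T113 (1.38 CPM with the Scrib and 1.13 CPM with the Renilla hairpin), none in T91, and 0 and 12 counts in T118. Sct was not set apart in T113. It had 0.838 CPM with the Scrib hairpin and 1.10 CPM with the Renilla hairpin there, 0.208 and 0.301 CPM in T91, and 0.893 and 1.07 CPM in T118. Its T113 minus T118 difference was -0.09 on the log2 scale (SE 0.38). Gip, a hormone of intestinal K cells, and Ghrl, the ghrelin gene, both named after their values were seen, had 42 and 51 counts and 18 and 28 counts in T113. The T113 hairpin ratios were 1.22 for Sst (0.769 to 1.92), 1.001 for Gip (0.649 to 1.54) and 0.781 for Ghrl (0.407 to 1.46), so no hairpin difference was detectable for these hormones in T113. For Sst in T118 the interval of the ratio ended at 0.386. Ins1 and Ins2, the insulin genes, had no count in any library. The 14 hormones summed to 4.39 and 4.53 CPM in T113 with the Scrib and the Renilla hairpin, 0.458 and 0.401 CPM in T91, and 1.11 and 1.80 CPM in T118.

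Goblet and Paneth genes serve the other fates under Atoh1. Of 19 such genes, 14 passed the filter, both T113 libraries lay above the other 4 for 12 of these (16.6% of all genes tested), and 9 passed the F-test between lines. For 6 of them T113 was higher than T91 and than T118 with both adjusted p under 0.05, a share that was 1.02% over all genes. Not all of the 9 were high in T113. Mmp7, named after its values were seen, passed the F-test (line adjusted p = 0.0186) but was lower in T113 than in T91, by a log2 difference of -3.16 (SE 0.56). Xbp1 passed too, with a T113 minus T91 difference of -0.22 (SE 0.20). Without T91 the F-test called 5 of the list, and without T113 it called 4. Ern2, a stress sensor of the goblet cell endoplasmic reticulum, had 24.6 CPM with the Scrib hairpin and 38.9 CPM with the Renilla hairpin in T113, 2.83 and 8.93 CPM in T91, and 4.11 and 11.4 CPM in T118 (T113 minus T91 2.56, SE 0.27; T113 minus T118 2.11, SE 0.26). Foxa3 and Creb3l1, transcription factors of goblet cells, were higher in T113 as well, Foxa3 by 1.396 over T91 and 2.10 over T118 and Creb3l1 by 2.16 and 4.72 on the log2 scale. Ern2 and Foxa3 did not pass between lines without T113, nor Creb3l1 without T91. The whole list summed to 1567 CPM with the Scrib hairpin and 2551 CPM with the Renilla hairpin in T113, 206 and 259 CPM in T91, and 135 and 734 CPM in T118. Single genes carried much of these sums. Most of the T113 sum was Fcgbp, with 27453 counts with the Scrib hairpin and 56659 with the Renilla hairpin. Most of the T91 sum was Xbp1, with 3637 and 4182 counts, against 3521 and 5221 in T113. Both genes were named after their values were seen.

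All 14 of these goblet and Paneth genes had a hairpin log2 fold change below 0, beside 7339 of all 14169 genes tested. The median was -1.26, and values ran from -1.88 (SE 0.51) for Fcgbp to -0.05 (SE 0.19) for Rep15, also named after its values were seen. The Scrib to Renilla ratio of Creb3l1 was 0.130 in T118, 0.605 in T113 and 0.447 in T91, and that of Ern2 was 0.360, 0.633 and 0.317. Of the 14 genes, 4 had an unadjusted p under 0.05 (5.06% of all genes were lower at that p). None of the 14 passed the adjusted threshold. Ern2 came nearest in p with a log2 fold change of -1.22 (SE 0.21, edgeR adjusted p = 0.509), and DESeq2 gave it an adjusted p of 0.000673. Over 10 settings its adjusted p ran from 0.000673 to 0.9998, with 2 calls. Creb3l1 had -1.29 (SE 0.35, edgeR adjusted p = 0.693) and passed in 1 of 10 settings, the fit without T118, with an adjusted p of 0.0330 in a range up to 0.9998. Gfi1, a zinc-finger factor that acts after Atoh1 and was named after its values were seen, had 69 counts with the Scrib hairpin and 145 with the Renilla hairpin in T113, a ratio of 0.578 (0.428 to 0.775). In T91 it had 2 and 9 counts, a ratio of 0.277 (0.0291 to 1.34). In T118 it had 8 and 7 counts, a ratio of 1.22 (0.388 to 3.97), so no Gfi1 difference was detectable in either of these lines.

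**Figure D4:**
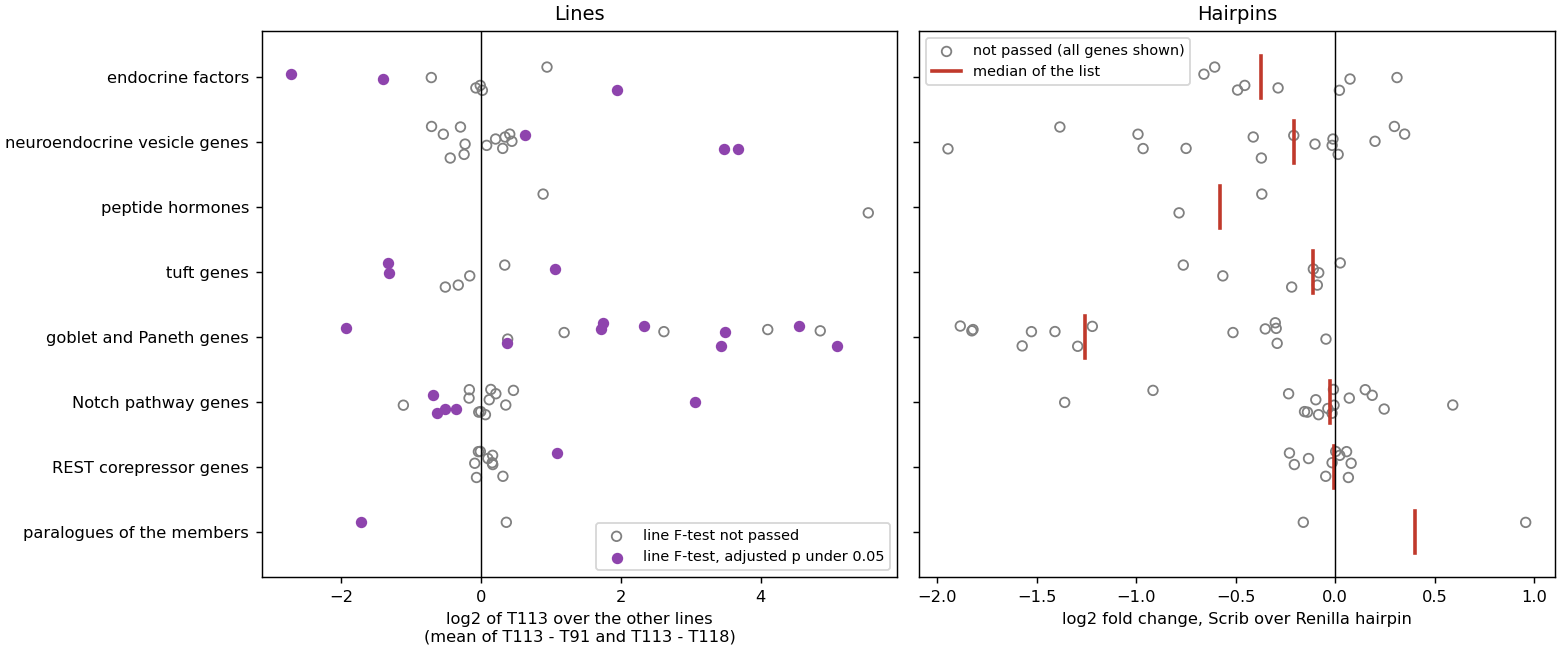
Genes of the 8 lists that passed the filter, by list (vertical axis). Left, log2 of T113 over the other lines (mean of both differences), filled where the edgeR F-test between lines passed; right, log2 fold change of the Scrib over the Renilla hairpin, with the median of each list as a red bar. Of the goblet and Paneth genes, 9 are filled on the left and all 14 lie left of 0 on the right, around a median of -1.26. Over all 14169 genes tested, 7339 had a hairpin log2 fold change below 0.

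Tuft genes numbered 27, and 7 passed the filter, of which 3 differed between lines. Ptgs1, a prostaglandin synthase, was highest in T91, with 23.9 CPM with the Scrib hairpin and 19.9 CPM with the Renilla hairpin in T113, against 92.7 and 96.0 CPM in T91 and 28.2 and 31.0 CPM in T118 (line adjusted p = 0.000609, edgeR F-test). Plcg2, a phospholipase of taste-type signalling, was lower in T113 than in T91 too, by a log2 difference of -1.65 (line adjusted p = 0.0366). Both were highest in T91, as Dclk1 was. The third gene called between lines, Avil, was lowest in T118 (T113 minus T118 1.82, line adjusted p = 0.0438, edgeR F-test) and was named after its values were seen. Avil had a T113 minus T91 difference of 0.30 (SE 0.34) and did not pass between lines without T118. Other epithelial and blood cells also express Ptgs1 and Plcg2, and 9 of the 27 had no count in any library. The hairpin log2 fold changes nearest to the threshold in this list were -0.76 (SE 0.38) for Tas1r3, a taste receptor subunit, and -0.57 (SE 0.60) for Il17rb, a cytokine receptor, and neither passed. Without T113 the F-test called 1 gene, Ptgs1, and Plcg2 did not pass without T91 either.

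Among 23 Notch pathway genes, 16 passed the filter and 5 differed between lines. Dll4, a Notch ligand, was higher in T113, with 1.48 CPM with the Scrib hairpin and 2.59 CPM with the Renilla hairpin, against 0.0832 and 0.502 CPM in T91 and 0.107 and 0.333 CPM in T118 (line adjusted p = 0.0123, edgeR F-test). Jag2, another ligand, was highest in T118 (T113 minus T118 -0.91, line adjusted p = 0.0115). Without T113 none of the list passed between lines, and without T118 3 did, Jag2 not among them. With the Scrib hairpin Dll4 had a log2 fold change of -1.36 (SE 0.44) and Notch3, a receptor, -0.92 (SE 0.22), neither past the adjusted threshold, and the median of the 16 was -0.03. Hes1, the Notch target that represses Atoh1 and Neurog3 in mouse, was named after its values were seen, and had 34.2 and 27.9 CPM in T113, 35.2 and 23.2 CPM in T91, and 47.3 and 52.2 CPM in T118 with the Scrib and the Renilla hairpin.

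All 10 genes of the REST corepressor complex, which silences neuronal and endocrine genes in other tissues, passed the filter. Rcor2 alone differed between lines (T113 minus T91 0.49, T113 minus T118 1.69, line adjusted p = 0.00399, edgeR F-test), and the median hairpin log2 fold change of the 10 was -0.01. Rcor2 and Rcor1, both corepressors, had -0.23 (SE 0.13) and -0.21 (SE 0.10), and neither passed. Of 16 paralogues of the described genes, only Atoh8 and Pou2f1 passed the filter. Atoh8, a distant relative of Atoh1, ran the other way, with 2.28 CPM with the Scrib hairpin and 1.41 CPM with the Renilla hairpin in T113, 6.78 and 3.08 CPM in T91, and 9.86 and 4.95 CPM in T118. It was lower in T113 than in both other lines (line adjusted p = 0.00787, edgeR F-test, not passed without T113), and its hairpin log2 fold change of 0.96 (SE 0.19) did not pass.

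The genes nearest in pattern over the 6 libraries were found by the root mean square difference of log2 CPM in units of each gene's SD, among 2403 protein-coding genes. BC030870 was nearest to Atoh1 (0.0821 SD) and to Hepacam2 (0.106 SD), with 9.83 CPM with the Scrib hairpin and 12.9 CPM with the Renilla hairpin in T113, 1.79 and 2.41 CPM in T91, and 1.71 and 3.37 CPM in T118. Next came Fam110b and Cabp1 for Atoh1, and Cracr2a and Otop1 for Hepacam2. Chgb was nearest to Klhl32 (0.0583 SD), Tifa (0.0814 SD) and Fam171a1 (0.0868 SD). Division by the SD takes out the size of a difference, so genes alike in pattern can differ much in fold. Fam171a1 had 42.7 CPM with the Scrib hairpin and 44.6 CPM with the Renilla hairpin in T113, 26.2 and 27.1 CPM in T91, and 17.9 and 20.0 CPM in T118. The 6 libraries come from 3 lines, so a likeness rests mainly on the order of 3 lines.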

How the data were processed

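RNA libraries from 6 organoid cultures were analysed, 3 lines with 2 hairpins each. Each library has a table of estimated counts by Ensembl identifier, as deposited by the authors. The submitters' processing notes name Salmon 1.4.0, DESeq 2 and the build GRCm38 (mm10), with no role for the second tool. Strand setting and transcript annotation: not given in the sources used here. Salmon shares reads among similar transcripts by estimation, so near-identical genes can trade counts. Per the labels' protocols RNA was extracted with Trizol and a column kit for Illumina mRNA libraries.

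Estimated counts were rounded to whole numbers. Symbols, positions and exon lengths came from GENCODE M21, and 54131 of 54453 identifiers matched. CPM values are unnormalised, relative to the total count of the library. Tests used edgeR 4.0.16 in R 4.3.3 (TMM, filterByExpr on hairpin groups with minimum count 10, robust quasi-likelihood F-tests with terms for line and hairpin, two-sided), with Benjamini-Hochberg adjustment over 14169 genes. The common biological coefficient of variation was 15.5%. Line is the block because each line received both hairpins, and deviations of the libraries of a line correlated at 0.666 in T113, 0.621 in T91 and 0.662 in T118. Nothing says that the libraries came from separate cultures beyond line and hairpin, so p-values measure the spread between these samples. Ratios within a line carry exact conditional 95% intervals. Scripts were tested on simulated data.

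Members, lists, tests and alternatives were chosen with earlier results of these data known. Named are all 10 genes, up to 4 genes of each list (the 2 smallest p between lines and between hairpins) and the 3 nearest genes by pattern; others are said to be named after their values were seen. Alternatives were no line term, DESeq2 1.42.0 and its size factors, limma-voom 3.58.1, no filter, leaving out each line and other CPM limits; a filter on lines and TMM-scaled ratios were added after the data were seen.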

Additional observations from a re-analysis of the deposited data

Results flagged for a closer look

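Of 80 list genes with at least 10 counts in 2 or more lines, 12 had counting intervals of the Scrib to Renilla ratio on both sides of 1 in different lines (Ctbp2, Hes1, Hes6, Jag1, Notch1, Notch2, Pou2f1, Ptgs1, Rbpj, Rest, Sin3a and Xbp1). The matching share over all genes was not computed, and counting intervals narrow as counts rise, so nothing is read from the 12. The differences between lines were not tested, because each line has 1 library per hairpin, and the intervals cover counting error only. Of the 12, Hes1, Pou2f1 and Ptgs1 are described here. Hes1, the Notch target, had a ratio of 1.22 in T113 (95% counting interval 1.12 to 1.34), 1.52 in T91 (1.37 to 1.68) and 0.905 in T118 (0.841 to 0.974). Pou2f1, a paralogue of Pou2f3 found in most cells, had a ratio of 1.32 in T118 (1.21 to 1.43) and 0.554 in T91 (0.501 to 0.611). Ptgs1, the prostaglandin synthase of the tuft list, had a ratio of 1.203 in T113 (1.08 to 1.34) and 0.908 in T118 (0.825 to 0.999). None of the 10 described genes gave such a pair.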

How the results depend on the processing

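The line is the block of the design, so the paired fit is the one reported. With no replicate block the hairpin fit called the same number of genes, 1, and log2 fold changes of Hepacam2, Atoh1 and Chgb were -0.97, -0.61 and -0.46. All 26 values of these 3 genes under the alternatives kept their direction and stayed uncalled; Hepacam2 ran from -1.62 to -0.97, Atoh1 from -1.45 to -0.49 and Chgb from -0.59 to -0.43. Without T113 Chgb fell under the filter and was not fitted.

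The count of genes called for the hairpin over all genes was 1 and became 64 with no low-count filter, 63 with DESeq2 and 8 with limma-voom, and 9 to 94 when a line was left out (9 without T113, 94 without T91, 25 without T118). List genes called for the hairpin went to 1 (Ern2) with no filter and to 1 (Ern2) with DESeq2, and to between 0 and 2 when a line was left out, with Creb3l1 and Clca1 called without T118. The cause was not tested. Between lines, 1989 genes were called, and 1209 (without T113) to 3305 (without T91) when a line was left out; of list genes, 25 were called, and 11 (without T113) to 31 (without T118). With a limit of 2 CPM, 3 genes of the 10 were on in T113 (Chgb, Atoh1 and Hepacam2) in place of 5. The 6 ratios with an interval below 1 were also 6 with TMM-scaled libraries.

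Depth limits the 10 genes: Neurod1, Chga, Pax4, Dclk1 and Pou2f3 had at most 11 counts in any library, and 3 counts equal 0.0828 to 0.125 CPM.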
